A study of Caenorhabditis elegans with 154 samples.

Results

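The step between the middle densities of the dilution series was examined, in which L1 larvae arrested at 20 eggs/μL were compared with L1s arrested at 5 eggs/μL. All animals labelled with these densities were included, 80 of the 154 single L1s of the series. At 20 eggs/μL there were 20 *fog-2* and 16 N2 animals, and at 5 eggs/μL there were 22 *fog-2* and 22 N2 animals. *fog-2* is the feminized mutant *fog-2(q71)*, in which XX animals make no sperm and offspring come from matings with males, and N2 is the wild-type hermaphrodite strain. Embryos of mixed age were taken from well-fed adults by bleaching, resuspended without food in M9 buffer containing polyethylene glycol, and collected as single L1s after 22 hr. The comparison asks how much of the response to arrest density falls between these neighboring densities.

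L1 arrest is a reversible halt of development that newly hatched *C. elegans* enter when they find no food. Insulin-like peptides, acting through the DAF-2 receptor, are among the signals that hold or release it. Arrested larvae live on stored fat, stop making the next cuticle and change how they use fuel. How crowded the larvae are is known to affect how long they survive starvation, and the signals that carry this information in arrested L1s are only partly known.

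Levels are in tpm, a share of all transcripts of an animal corrected for transcript length, and each is therefore relative to all other transcripts of that animal. Each animal is one library of a whole larva, and fewer cells of a type cannot be told apart from less RNA per cell. Between 8262 and 13251 transcript rows reached 1 tpm in animals at 20 eggs/μL, and between 7543 and 18346 in animals at 5 eggs/μL. The means were 10913 ± 1421 (SD, n = 36) and 11175 ± 1958 (SD, n = 44), and they were not shown to differ (difference -293, two-sided permutation test within strain, p = 0.435, adjusted p = 0.652 over 3 comparisons). The markers of muscle, intestine, hypodermis, neurons and the excretory cell were found in all 80 animals, with summed levels of at least 6913, 862, 700.0, 800.0 and 95.0 tpm. The 6 yolk genes summed to at most 22.1 tpm in *fog-2* and 3.88 tpm in N2 at 20 eggs/μL, against 3.48 and 8.55 tpm at 5 eggs/μL. Markers of oocytes and early embryos had a median sum of 78.9 tpm in *fog-2* at 20 eggs/μL against 78.5 tpm at 5 eggs/μL, and of 54.8 against 76.7 tpm in N2, and 0 of the 14 rows tested from that list passed in either direction. In *fog-2* at 5 eggs/μL, 3 animals, all with the digit 1 in their names, correlated less with the others of their group and stood apart. The digit that follows the density in an animal's name (1 to 3) is not explained in the labels, nor is it stated which animals came from separate cultures. The p-values therefore measure only the spread between these animals.

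At 20 eggs/μL, 97 transcript rows were lower and 3 were higher than at 5 eggs/μL, of 15380 rows tested with both strains together (limma with a strain term, values taken as log2(tpm + 1), Benjamini-Hochberg adjusted p under 0.05). These are 0.631% and 0.0195% of the rows tested, or 0.650% in either direction, and 1129 rows had an unadjusted p under 0.05. Over all rows the median log2 fold change was -0.05, and 43.7% of rows had a positive value. All 100 rows that passed had the same sign in each strain. Log2 fold changes are given for 20 over 5 eggs/μL, and because of the added 1 they come out too small for low transcripts. A fit that left out the 3 animals that stood apart was added once the data had been seen, and in it 89 rows were lower and 2 higher, 85 and 2 of them among those of the full set. The number of calls rested in part on single name digits. With digit 1, 2 or 3 left out, 71, 49 and 40 rows were lower and 4, 3 and 0 higher. With the mean of each digit in place of the single animals, 25 rows were lower and 0 higher, all 25 of them among the 97. Of the 100 rows, 16 passed under all 4 of these settings. They belong to *nspe-1*, *nspe-2*, *nspe-7*, *lips-15*, *Y38E10A.14*, *ins-20*, *R11D1.3*, *F35E8.10*, *F35E8.13*, *C02E7.6*, *C02E7.7*, *R12E2.14*, *R12E2.15*, *mtre-1*, *cut-2* and *col-165*, a list drawn up once the values were known.

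The genes with the 2 largest falls, *nspe-1* and *nspe-2*, lie together with *lips-15* in a stretch of chromosome II. *nspe-1* (ce11, II:12620649-12620864, minus strand) encodes a small nematode-specific peptide of the nspe family. In *fog-2* its level ran between 0 and 17.3 tpm at 20 eggs/μL with a median of 0, against 2.39 to 500.0 tpm at 5 eggs/μL with a median of 188 tpm. In N2 the range was 0 to 7.77 tpm with a median of 0 at 20 eggs/μL, against 0 to 1205 tpm with a median of 180.9 tpm. The transcript was listed at 0 in 15 of 20 *fog-2* and 14 of 16 N2 animals at 20 eggs/μL, against 0 of 22 and 1 of 22 at 5 eggs/μL. The densities overlapped only at their edges, and the log2 fold change was -6.34 (limma, SE 0.40 and adjusted p = 1.15e-23). The drop was seen in each strain within each name digit, where the difference of means on the log2 scale ran between -8.54 and -4.49.

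*nspe-2* (II:12619173-12619388, minus strand), a neighbor of the same family, was near the floor at 20 eggs/μL as well. At 20 eggs/μL it was listed at 0 in 19 of 20 *fog-2* and 15 of 16 N2 animals, with single highest values of 12.95 and 6.65 tpm. At 5 eggs/μL it ran between 0 and 195 tpm in *fog-2* (median 36.1 tpm) and between 0 and 769 tpm in N2 (median 60 tpm). Here the groups overlapped at 0, since 5 *fog-2* and 6 N2 animals at 5 eggs/μL had none listed. Its medians at 1, 5 and 20 eggs/μL were 290.6, 36.1 and 0 tpm in *fog-2* and 453.4, 60 and 0 tpm in N2. The study describes its density-regulated genes in general as changing continuously over the densities and not by a switch. Over both strains the log2 fold change was -4.39 (limma, SE 0.50 and adjusted p = 8.22e-10).

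*lips-15* (II:12604386-12607027, plus strand) encodes a predicted lipase. In *fog-2* it ran between 0 and 359 tpm at 20 eggs/μL with a median of 48.8 tpm, against 0 to 2642 tpm with a median of 265 tpm at 5 eggs/μL. In N2 it ran between 0 and 1387 tpm with a median of 42.5 tpm, against 2.2 to 2192 tpm with a median of 620 tpm at 5 eggs/μL. At 20 eggs/μL it was listed at 0 in 3 of 20 *fog-2* and 6 of 16 N2 animals, fewer than for *nspe-1*, and the densities overlapped widely. The log2 fold change was -3.69 (limma, SE 0.59 and adjusted p = 1.63e-05). By strain the values were -2.98 in *fog-2* and -4.49 in N2.

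Across the 8 nspe genes of the files, 6 rows were tested, 5 of which fell and 0 rose, with a median log2 fold change of -3.06 against -0.05 over all rows. The list was drawn up because the study names *nspe-1* and *nspe-2* from the same series, so this count is not independent evidence of the direction. *nspe-7* had a log2 fold change of -3.38 (SE 0.50), *nspe-6* -2.74 (SE 0.59) and *nspe-4* -2.33 (SE 0.53), while *nspe-5* had -1.14 (limma, SE 0.47 and adjusted p = 0.469) and did not pass. The count was 3 without name digit 3, and it was 4 or 5 without digit 1 or 2, with means by digit and without the animals that stood apart. *nspe-6* and *nspe-4* were the members lost, and *nspe-4* and *nspe-5* were named after their values were seen. Reads of such similar small genes may be shared between copies, which leaves the level of any one of them uncertain.

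Of the 11 tested genes between *lips-15* and *Y38E10A.28*, 7 fell. The exceptions were *Y38E10A.8* (0.56, SE 0.35) and *Y38E10A.9* (0.30, SE 0.29), which directly follow *lips-15* on the same strand, and *nspe-5* and *Y38E10A.28* (-0.63, SE 0.38) at the far end. *Y38E10A.14*, next to *nspe-1*, fell with a log2 fold change of -2.86 (limma, SE 0.44 and adjusted p = 7.90e-06). *lips-16* in the same stretch is annotated as a pseudogene, and the study names it as a predicted lipase gene repressed at high density. It did not reach the filter on low values in these animals, so its change over this step was not tested. The genes of this stretch outside the nspe family, except *lips-15*, were also named after their values were seen.

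**Figure D1:**
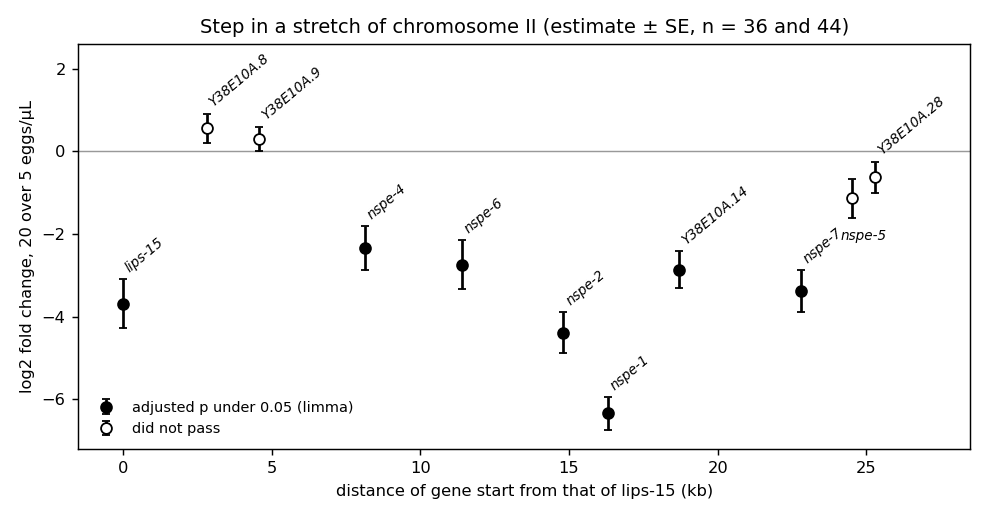
Log2 fold change of 20 over 5 eggs/μL (y axis, estimate ± SE from limma) for the tested genes of a stretch of chromosome II, by the distance of the gene start from that of *lips-15* in kb (x axis). Filled points passed the test and open points did not, and 7 of the 11 genes lie between -6.34 and -2.33 while *Y38E10A.8* and *Y38E10A.9* lie above 0.

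Insulin-like peptide genes, which encode ligands of the DAF-2 receptor, had 2 members that fell, *ins-20* and *ins-26*, among 23 rows tested, and 0 that rose (8.7% lower against 0.631% of all rows). *ins-20* (II:6010844-6011321, plus strand) was listed at 0 in 14 of 20 *fog-2* and 13 of 16 N2 animals at 20 eggs/μL, against 5 of 22 and 5 of 22 at 5 eggs/μL. Its highest levels were 108 tpm in *fog-2* and 78.3 tpm in N2 at 20 eggs/μL, against 3651 and 1729 tpm at 5 eggs/μL, with medians of 0 and 0 against 101 and 59.1 tpm. Most animals at 20 eggs/μL thus lay at the floor while those at 5 eggs/μL spread over the whole range. The fitted log2 fold change was -4.0 (limma, SE 0.65 and adjusted p = 2.27e-05). *ins-26* had a log2 fold change of -2.17 (limma, SE 0.50 and adjusted p = 0.00802), and this call was lost when any name digit was left out. The median over the list was -0.25, with *ins-2* at -0.80 and *ins-39* at -0.61, neither of which passed. Of 10 rows of the insulin receptor pathway, 0 passed in either direction. *sgk-1*, a kinase of that pathway, had a log2 fold change of 0.28 (limma, SE 0.30 and adjusted p = 0.902).

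The pud genes are named for proteins that are more abundant in *daf-2* insulin receptor mutants. Of 7 rows tested, *pud-1.1*, *pud-1.2*, *pud-2.1* and *pud-2.2* fell and 0 rose (57.1% lower against 0.631% of all rows). *pud-1.1* had medians of 45.4 tpm in *fog-2* and 2.57 tpm in N2 at 20 eggs/μL, against 270 and 138 tpm at 5 eggs/μL. The animals overlapped over the whole range, since the highest N2 animal had 9556 tpm at 20 eggs/μL against 9627 tpm at 5 eggs/μL. Log2 fold changes of the 4 genes were between -3.47 and -3.27 (SE 0.68 to 0.70). They lie in 1 stretch of chromosome V (2322038 to 2330930) as near-identical pairs that may share reads, so they are not 4 independent measurements. Without the animals of name digit 2, 0 of the 4 passed, and 2 passed without digit 3 or with means by digit.

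*R11D1.3* (V:12711293-12712099, minus strand) has no assigned name. In *fog-2* it ran between 0 and 920 tpm at 20 eggs/μL with a median of 32.9 tpm, against 69.4 to 1128 tpm with a median of 434 tpm at 5 eggs/μL. In N2 it ran between 0 and 245 tpm with a median of 56.2 tpm, against 10.5 to 766 tpm with a median of 143 tpm. No animal at 5 eggs/μL was listed at 0, against 5 *fog-2* and 2 N2 animals at 20 eggs/μL. The log2 fold change was -3.22 (limma, SE 0.46 and adjusted p = 1.55e-06). By strain the values were -4.0 in *fog-2* and -2.34 in N2.

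Several further genes fell over this step. *F35E8.13* had medians of 9.41 tpm in *fog-2* and 47.5 tpm in N2 at 20 eggs/μL, against 90.5 and 162 tpm at 5 eggs/μL, with a log2 fold change of -2.75 (SE 0.48). Its neighbor *F35E8.10* had -2.88 (SE 0.49), and both overlap a gene on the opposite strand, so that their reads may not be told apart. *best-24*, of the bestrophin chloride channel family, had -2.03 (SE 0.33) and *ugt-11*, a UDP-glucuronosyltransferase, -1.63 (SE 0.43). *dmd-7*, of the DM domain family of transcription factors, changed less, and it overlaps other genes. In *fog-2* it ran between 4.17 and 86.9 tpm at 20 eggs/μL with a median of 44.04 tpm, against 59.7 to 171 tpm with a median of 76.2 tpm. In N2 its medians were 56.7 tpm at 20 eggs/μL and 61.1 tpm at 5 eggs/μL. The log2 fold change of *dmd-7* was -0.92 over both strains (limma, SE 0.22 and adjusted p = 0.0122), -1.16 in *fog-2* and -0.64 in N2, and the call was lost without any one of the name digits. *dach-1* (T09H2.1), which lies on chromosome V near the P450 gene *cyp-34A5*, fell, with -1.98 (limma, SE 0.42 and adjusted p = 0.00287), a call lost without digit 1 or 2 and with means by digit. The study also names a P450 gene, *cyp34-A4*, and no symbol in the annotations used here matched it. Whether it is *dach-1* is not given in them. The *best-24* call was lost without digit 2 and the *ugt-11* call without digit 2 or 3, and both were lost with means by digit.

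**Figure D2:**
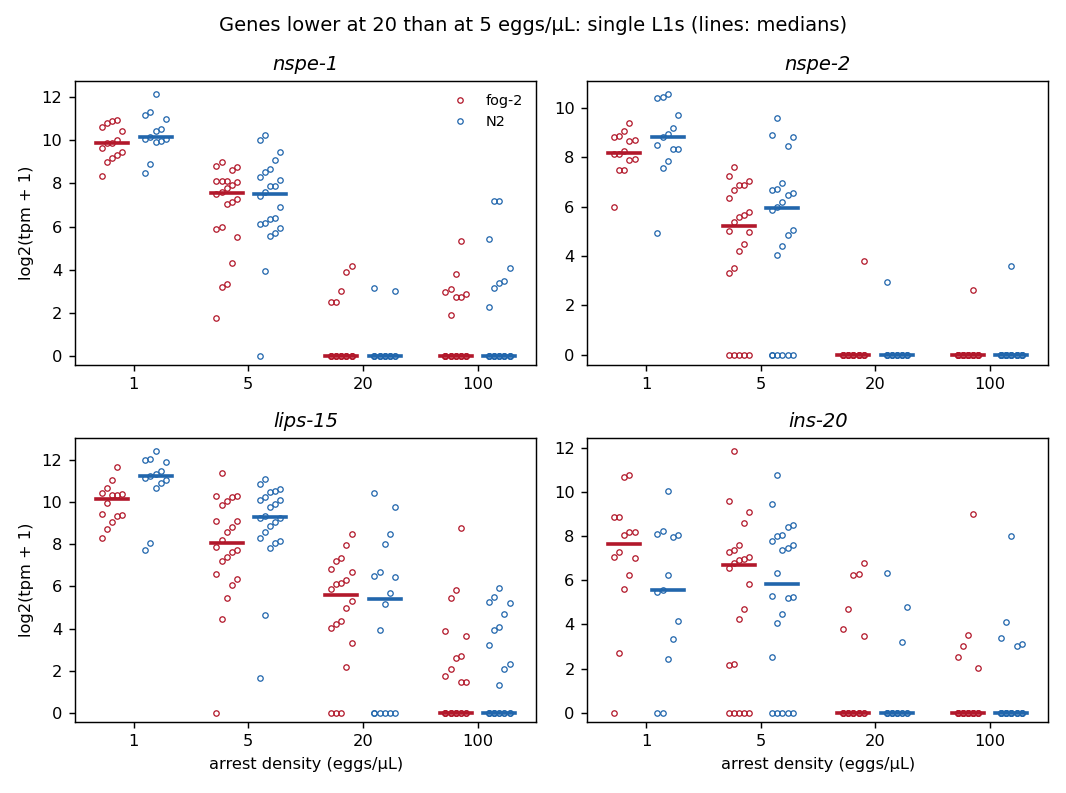
Levels of *nspe-1*, *nspe-2*, *lips-15* and *ins-20* in single L1s (points, log2(tpm + 1) on the y axis) at 1, 5, 20 and 100 eggs/μL (x axis), with *fog-2* in red, N2 in blue and the median of each group as a line. The medians of *nspe-1*, *nspe-2* and *ins-20* are at 0 at 20 eggs/μL in both strains, while those of *lips-15* are 48.8 and 42.5 tpm.

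Genes that encode parts of the cuticle were also among those that fell. The cuticle is the collagen-rich coat that the hypodermis secretes before hatching and at each molt. Of 103 cuticle collagen rows tested, 8 fell and 0 rose, or 7.77% against 0.631% of all rows, while the median of the list was -0.01, and the other 95 did not pass. The 8 were *dpy-14*, *sqt-3*, *dpy-17*, *col-14*, *col-74*, *col-97*, *col-130* and *col-165*. Loss of *dpy-14*, *sqt-3* or *dpy-17* alters body shape. *dpy-17*, *col-14*, *col-97* and *col-130* lie outside the rule for named genes. The count was 6, 4 and 3 without digit 1, 2 or 3, 1 with means by digit, where *col-165* remained, and 8 without the animals that stood apart.

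*sqt-3* (V:12352745-12354320, plus strand) ran between 3.91 and 465 tpm in *fog-2* at 20 eggs/μL with a median of 32.4 tpm, against 21.2 to 497 tpm with a median of 142 tpm at 5 eggs/μL. In N2 it ran between 0 and 147 tpm with a median of 40.6 tpm, against 4.63 to 1301 tpm with a median of 105 tpm. The groups overlapped over most of their range. The log2 fold change was -2.24 (limma, SE 0.43 and adjusted p = 5.55e-04).

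*dpy-14* ran between 0 and 336 tpm in *fog-2* (median 23.3 tpm) and 0 and 182 tpm in N2 (median 15.5 tpm) at 20 eggs/μL. At 5 eggs/μL it ran between 22.1 and 457 tpm in *fog-2* (median 118.8 tpm) and 2.57 and 1903 tpm in N2 (median 145 tpm). The medians thus lay apart in both strains while single animals overlapped, with a log2 fold change of -2.74 (limma, SE 0.44 and adjusted p = 1.88e-05). *col-165* had a log2 fold change of -2.37 (SE 0.40) and *col-74* -2.1 (SE 0.38). *col-159* and *col-160*, overlapping collagen genes that the study plotted, had 0.83 (limma, SE 0.25 and adjusted p = 0.124) and 0.72 (SE 0.19 and adjusted p = 0.0547), and neither passed.

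Cuticlins are insoluble proteins of the cuticle. Of 23 rows tested, *cut-2* and *cut-3* fell and 0 rose, 8.7% against 0.631% of all rows, with a median of -0.33 over the list. The count was 1, 1 and 2 without digit 1, 2 or 3 and 1 with means by digit. *cut-2* ran between 0 and 31.6 tpm in *fog-2* (median 6.11 tpm) and 0 and 15.6 tpm in N2 (median 1.89 tpm) at 20 eggs/μL. At 5 eggs/μL it ran between 4.96 and 129 tpm in *fog-2* (median 40.1 tpm) and 0 and 296 tpm in N2 (median 20.6 tpm). Its log2 fold change was -2.50 (limma, SE 0.37 and adjusted p = 3.35e-06). Of 27 hedgehog-related rows, secreted proteins of the hypodermis among them, *wrt-10* (-2.39, SE 0.47) and *grl-5* (-1.90, SE 0.40) fell and 0 rose (7.41% lower), and the count was 1 without any one digit and 0 with means by digit. Of 12 molting genes 0 passed, with *mlt-8* at -1.17 (limma, SE 0.35 and adjusted p = 0.11) and *noah-2* at -1.04 (SE 0.37). Of the 7 hypodermis marker rows, *sqt-3*, which belongs to both lists, was the only one to pass, and *dpy-7*, a collagen of the same list, had -0.88 (limma, SE 0.33 and adjusted p = 0.356). The summed level of the 9 hypodermis rows in the files had medians of 1516 tpm in *fog-2* and 2021 tpm in N2 at 20 eggs/μL, against 1680 and 2387 tpm at 5 eggs/μL. Its part in the cuticle genes was not tested.

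Small heat shock genes, whose products hold unfolded proteins during stress, fell as well. Of 15 rows of small heat shock genes and other chaperones tested, *hsp-16.1*, *hsp-16.11*, *hsp-16.41*, *hsp-16.48* and *hsp-16.49* fell and 0 rose, 33.3% against 0.631% of all rows, with a median of -0.34 over the list. *hsp-16.11* (V:9090077-9090604, plus strand) ran between 0 and 298 tpm in *fog-2* (median 30.1 tpm) and 0 and 111 tpm in N2 (median 0) at 20 eggs/μL. At 5 eggs/μL it ran between 21.4 and 639 tpm in *fog-2* (median 110 tpm) and 0 and 362 tpm in N2 (median 23.1 tpm). It was listed at 0 in 11 of 16 N2 animals at 20 eggs/μL against 2 of 22 at 5 eggs/μL, and the log2 fold change was -2.69 (limma, SE 0.45 and adjusted p = 4.35e-05). Except for *hsp-16.41*, these genes lie side by side on chromosome V as near-identical pairs that may share reads, and *hsp-16.41* was named after its value was seen. The count was 3, 5 and 3 without digit 1, 2 or 3, 0 with means by digit and 4 without the animals that stood apart. *F44E5.4* (-1.77, SE 0.45) and *F44E5.5* (-1.77, SE 0.46), a neighboring pair of similar HSP70 genes, were also lower and were named after their values were seen. Their calls were lost without digit 1 or 3, with means by digit and without the animals that stood apart.

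*numr-1* and *numr-2*, a pair of nearly identical genes induced by metals, had log2 fold changes of -2.54 (SE 0.47) and -2.38 (SE 0.44). *numr-1* ran between 0 and 150 tpm in *fog-2* (median 4.04 tpm) and 0 and 80.8 tpm in N2 (median 6.05 tpm) at 20 eggs/μL. At 5 eggs/μL it ran between 0 and 437 tpm in *fog-2* (median 58.0 tpm) and 0 and 200 tpm in N2 (median 34.5 tpm). The groups overlapped, and these genes too were chosen after their values were seen. *ttr-50* was the only member of the transthyretin-related family, 48 rows tested, to pass. Its medians were 2.50 tpm in *fog-2* and 11.3 tpm in N2 at 20 eggs/μL, against 46.9 and 117 tpm at 5 eggs/μL, with a log2 fold change of -3.23 (limma, SE 0.50 and adjusted p = 7.94e-06). It overlaps *rbm-17*. *C02E7.6* ran between 0 and 86.9 tpm in *fog-2* and 0 and 62.8 tpm in N2 at 20 eggs/μL, against 13.2 to 171 tpm and 10.7 to 513 tpm at 5 eggs/μL. Its log2 fold change was -3.06 (limma, SE 0.37 and adjusted p = 9.48e-09), and that of its neighbor *C02E7.7* was -3.29 (SE 0.46). *mtre-1*, which overlaps *apn-1*, had medians of 6.73 and 0.915 tpm at 20 eggs/μL, against 77.8 and 104.4 tpm at 5 eggs/μL in *fog-2* and N2, with a log2 fold change of -3.33 (SE 0.50).

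Single members of other families fell as well, several of them genes of antimicrobial defense, which were not tested as a list. *cnc-4* and *cnc-3*, caenacin antimicrobial peptide genes that were named after their values were seen, had log2 fold changes of -2.63 (SE 0.57) and -2.38 (SE 0.40). *nlp-31*, an antimicrobial peptide gene counted among 100 neuropeptide rows, was the only row of that list to pass, with -1.79 (limma, SE 0.45 and adjusted p = 0.0296). Both *nlp-31* and *cnc-4* were lost without digit 2 or 3, and *cnc-3* without digit 3. Of the C-type lectin rows, 3 fell (*clec-266*, *clec-196* and *clec-230*, with values from -2.19 to -1.2), 0 rose and 101 did not pass, or 2.88% lower against 0.631% of all rows. The lectin count was 1, 0 and 0 without digit 1, 2 or 3 and 0 with means by digit. Over the lectin list the median was -0.03. Its summed medians were 12369 tpm in *fog-2* and 13904 in N2 at 20 eggs/μL, against 10512 and 11818 tpm at 5 eggs/μL. *spp-20*, a saposin-like gene, had -2.17 (SE 0.43) and was the only one to pass of 34 rows of saposin-like and lysozyme genes, until digit 1 was left out. The other direction was more common in that list, with a median of 0.08 and 12 rows below 0. *lys-4* had a higher mean at 20 eggs/μL in all 6 combinations of strain and digit and did not pass. The summed medians of the list were 8082 tpm in *fog-2* and 14607 in N2 at 20 eggs/μL, against 6415 and 13692 tpm at 5 eggs/μL. Like *sqt-3*, *col-74*, *cut-3* and *dach-1* above, *clec-266* and *spp-20* overlap another gene whose reads may be counted with theirs.

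**Figure D3:**
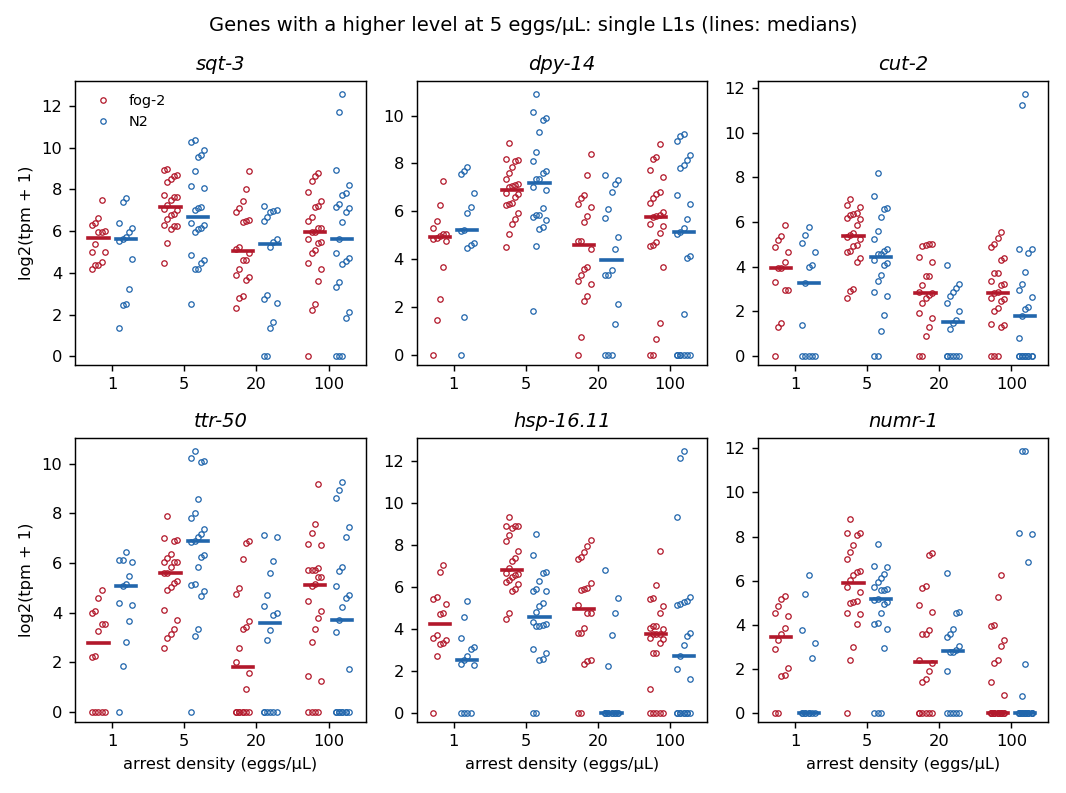
Levels of 6 genes in single L1s (points, log2(tpm + 1) on the y axis) at 1, 5, 20 and 100 eggs/μL (x axis), with *fog-2* in red, N2 in blue and medians as lines. In each panel and strain the median is lower at 20 than at 5 eggs/μL, for example 32.4 against 142 tpm for *sqt-3* in *fog-2*, and the median at 5 eggs/μL is also above that at 1 egg/μL.

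Only 3 rows rose. *F23F12.12* (III:6508132-6509499, plus strand), an uncharacterized gene that overlaps *acr-5* on the opposite strand, ran between 78.5 and 660 tpm in *fog-2* at 20 eggs/μL with a median of 228 tpm, against 31.8 to 201 tpm with a median of 90.4 tpm at 5 eggs/μL. In N2 it ran between 29.2 and 262 tpm with a median of 95.4 tpm, against 4.6 to 270.0 tpm with a median of 46.1 tpm. The log2 fold change was 1.14 (limma, SE 0.21 and adjusted p = 2.20e-04), with the same sign in each strain within each name digit, although the call was lost without digit 3 and with means by digit. Its medians over the whole series were 26.7, 90.4, 228 and 468 tpm in *fog-2* and 19.6, 46.1, 95.4 and 176 tpm in N2 at 1, 5, 20 and 100 eggs/μL. *mans-4*, a mannosidase gene, had a log2 fold change of 1.55 (limma, SE 0.40 and adjusted p = 0.035) and *Y106G6G.4* had 1.22 (SE 0.25 and adjusted p = 0.00151). Both were low, with highest medians of 8.10 and 3.82 tpm at 20 eggs/μL, and both overlap another gene. The *Y106G6G.4* call was lost without digit 3 and with means by digit, and that of *mans-4* without any one digit, with means by digit and without the animals that stood apart.

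Of the signaling and metabolic genes that the study names, *ins-26* and *dmd-7* fell, as given above, and the following did not pass over this step. *pyk-2*, a pyruvate kinase, had a log2 fold change of -0.47 (SE 0.17), *cah-4*, a carbonic anhydrase, -0.66 (SE 0.22), and *gpa-12*, a G protein alpha subunit, -0.83 (SE 0.30). *sams-1* and *ahcy-1* of the methionine cycle had -0.25 (SE 0.17) and -0.34 (SE 0.16), *daf-5*, of the dauer TGF-beta pathway, -0.33 (SE 0.24), and the 2 rows of the fatty acid desaturase gene *fat-2* -0.13 (SE 0.14) and -0.14 (SE 0.18). None of these passed (limma, adjusted p between 0.217 and 0.923). *pck-1*, the gluconeogenic enzyme PEPCK, had 0.77 (SE 0.22, adjusted p = 0.0721), and *gst-25*, a glutathione S-transferase, -1.75 (SE 0.47 and adjusted p = 0.0547).

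Several groups of basic cell functions had no member that passed in either direction. With 0.650% of all rows called, groups of this size may hold none, and nothing particular to them is read from these counts. This held for 19 rows of glycolysis, 46 of the respiratory chain, 33 proteasome rows, 41 translation factor rows and 21 autophagy rows, with medians between -0.13 and 0.17. Of 72 rows of cytosolic ribosomal proteins, 66 had a value below 0 and 0 passed, with a median of -0.12. It also held for 217 rows of nuclear hormone receptors (median -0.11), 68 with a cytochrome P450 symbol (-0.09, *dach-1* not among them), 21 of G protein alpha subunits (-0.06) and 13 of stress genes activated by DAF-16 (0.36). Of the cell type marker lists, muscle (10 rows), intestine (9), neurons (11) and the excretory cell (10) had 0 rows that passed, with medians between -0.22 and 0.00.

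The step was next taken in each strain alone. In *fog-2* (n = 20 and 22), 31 rows were lower and 2 higher, 0.202% and 0.0130% of the rows tested. Without name digit 2 or 3, 5 and 2 were lower and 0 higher. In N2 (n = 16 and 22), 8 rows were lower, 0.0520%, and 0 higher, with 751 rows at an unadjusted p under 0.05. Without digit 3, 1 row was lower in N2. *nspe-1*, *nspe-2*, *C02E7.6* and *Y38E10A.14* passed in both strains. The difference between the strains was tested with limma's interaction term, and 0 rows passed, with 702 at an unadjusted p under 0.05. The smallest p belonged to *ZK180.8* and *F55A11.8*. For *ZK180.8* the *fog-2* value was 2.39 and the N2 value -0.62, for *F55A11.8* they were -1.36 and 0.67, and these were not shown to differ between strains (adjusted p = 0.892 for both).

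**Figure D4:**
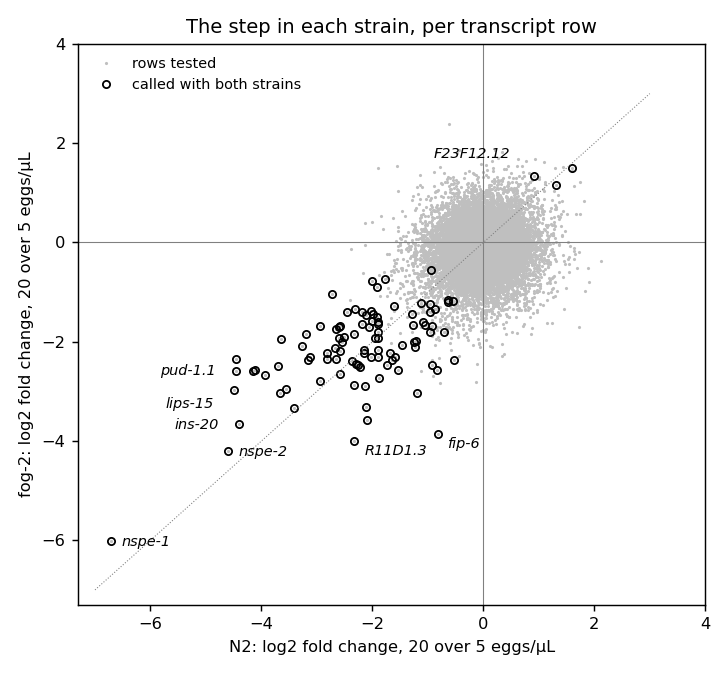
Log2 fold change of 20 over 5 eggs/μL in N2 (x axis) and *fog-2* (y axis) for every row tested (grey) and for the 100 rows that passed with both strains together (open circles), with equal values on the dotted line. All 100 have the same sign in each strain, which their selection over both strains favors, and *nspe-1* lies at -6.72 in N2 and -6.01 in *fog-2*.

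The size of the step was compared with that of its neighbors, 5 over 1 egg/μL (the first step) and 100 over 20 eggs/μL (the last step), in one limma fit over all 154 animals. The middle step is a smaller ratio of densities than either neighbor, and the values given here are not scaled for this. The steps share animals, since the 5 eggs/μL larvae also end the first step and the 20 eggs/μL larvae also begin the last, so that a level at 5 eggs/μL enters both differences with opposite sign. Alone, the first step had 146 rows higher and 34 lower (0.949% and 0.221%, together 1.17%), and the last step 160 higher and 15 lower (1.04% and 0.0975%, together 1.14%). Against the first step, 0.813% of rows had a lower value in the middle step and 0 a higher one. The median difference over all rows was -0.19, and 0.03 after quantile normalization, when 86 rows were lower and 3 higher. Against the last step, 24 rows were lower and 0 higher, 0.156%, with a median of -0.14, but only 2 remained after quantile normalization, when the median was 0.07. With detected rows as a covariate, 11 were lower and 2 higher. Without the animals that stood apart, 93 and 16 rows were lower than in the first and last step. For this fit, animals at 1 and 100 eggs/μL that stood apart by the same measure were also left out.

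*nspe-1* had a log2 fold change of -3.14 in the first step, -6.34 in the middle step and 0.68 in the last, and the middle step was more negative than the first (difference -3.19, SE 0.69, limma adjusted p = 0.00209) and than the last (difference -7.01, adjusted p = 5.21e-15 from the same fit). *nspe-2* had -3.86 in the first step, -4.39 in the middle step and -0.07 in the last. Its middle step was not shown to differ from the first (limma adjusted p = 0.896), and it differed from the last (adjusted p = 2.28e-05). *lips-15* had -2.02, -3.69 and -2.92 over the 3 steps, and the middle step was not shown to differ from the first (limma adjusted p = 0.647) or the last (adjusted p = 0.87). *R11D1.3* had -0.05 in the first step, -3.22 in the middle step and -3.68 in the last, and its middle step was more negative than the first (difference -3.17, SE 0.75, limma adjusted p = 0.00787). These genes thus had different values along the series, with the levels of *nspe-1* and *nspe-2* at the floor by 20 eggs/μL and those of *lips-15* and *R11D1.3* still falling in the last step (limma adjusted p = 2.72e-04 and 4.02e-11).

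The other pattern was a change of sign between the steps. *nspe-7* had 2.91 in the first step and -3.38 in the middle step (difference -6.26, SE 0.90, limma adjusted p = 6.78e-07), although it lies in the same stretch as *nspe-1*. *F19B10.13* had 2.33 and -2.38 (difference -4.72), *ttr-50* 2.61 and -3.23 (difference -5.86), *hsp-16.1* 3.10 and -2.50 (difference -5.54), *wrt-10* 2.61 and -2.39 (difference -5.02), *C02E7.6* 1.97 and -3.06 (difference -5.01), *T19B10.2* 2.79 and -2.26 (difference -5.05) and *Y37A1B.7* 1.98 and -1.74 (difference -3.73). With *nspe-7*, these are the 8 rows with the smallest p in that test. *sqt-3* had 1.80 and -2.24 (difference -4.03, SE 0.85, limma adjusted p = 0.00153). In the last step these genes had values between -0.30 and 1.55, and 0 of the 9 passed in it. Against the last step, *ttr-50* (1.19), *T19B10.2* (1.55), *C02E7.7* (1.24), *best-24* (0.39), *lpr-7*, a lipocalin-related gene (0.81), and *inx-2*, a gap junction innexin (1.67, with -1.25 in the middle step, which did not pass), had a more negative middle step (limma, adjusted p between 0.0251 and 0.031). As given above, few rows of the contrast with the last step remained after quantile normalization. Most of these calls against the last step therefore do not hold under that setting. The comparisons of steps were not repeated by name digit. N2 animals at 1 egg/μL mostly had digit 2 or 3. *fog-2* animals there were assigned no digit, although their names have the same form as those of N2. In N2 at 5 eggs/μL *sqt-3* was highest with digit 1 (median 608 tpm, against 21.4 and 82.3 tpm with digits 2 and 3). The part of the digits in these changes of sign was not tested.

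The levels of several genes with this pattern varied together between animals of one density. Across the 22 *fog-2* animals at 5 eggs/μL, Spearman's rho of *sqt-3* was 0.84 with *dpy-14*, 0.88 with *ttr-50*, 0.74 with *hsp-16.11* and 0.81 with *numr-1*, and in N2 it was 0.92, 0.86, 0.80 and 0.79. At 20 eggs/μL it was 0.83, 0.78, 0.52 and 0.52 across the 20 *fog-2* animals and 0.86, 0.76, 0.61 and 0.04 across the 16 N2 animals, so that *numr-1* did not follow *sqt-3* in N2 at that density. With *nspe-1*, rho of *sqt-3* was 0.34 in *fog-2* and -0.32 in N2 at 5 eggs/μL. With *lips-15* it was -0.31 and 0.18. The values of an animal come from one library, and these correlations are a description without a test. They pool the animals of all name digits. In N2 at 5 eggs/μL the medians of all 5 genes were highest with digit 1 and lowest with digit 2. Differences between digits thus enter these values of rho, and correlations within a digit were not computed. The number of rows that reached 1 tpm also differed between animals. In *fog-2* at 5 eggs/μL the animals with the fewest (7543, 9230, 9460 and 9584) had 497, 411, 405 and 481 tpm of *sqt-3*. Those with the most (18346, 14291, 13891 and 13177) had 208, 358, 21.2 and 41.9 tpm. In N2 at 5 eggs/μL the fewest (8004, 8559 and 8638) went with 61.7, 67.6 and 1251 tpm. The part of this number in the correlations was not tested.

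The levels also differed by name digit at a single density. *sqt-3* had medians of 123, 4.89 and 37.1 tpm in N2 at 20 eggs/μL for digits 1, 2 and 3 (n = 4, 7 and 5), against 608, 21.4 and 82.3 tpm at 5 eggs/μL (n = 8, 7 and 7). The N2 animals of digit 2 were thus the lowest at both densities, and digit 1 the highest. Digit by digit, the difference of means of *sqt-3* on the log2 scale was -2.14, -1.69 and -2.58 in N2 and -1.52, -2.30 and -1.57 in *fog-2*. *nspe-1* in N2 was at a median of 0 for every digit at 20 eggs/μL, against 55.5, 170.0 and 549 tpm at 5 eggs/μL. Of the 97 rows that fell, 82 (84.5%) had a lower mean at 20 eggs/μL in all 6 combinations of strain and digit, against 2.59% of all rows tested. The rows were chosen by the same contrast, so nothing is read from this share.

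**Figure D5:**
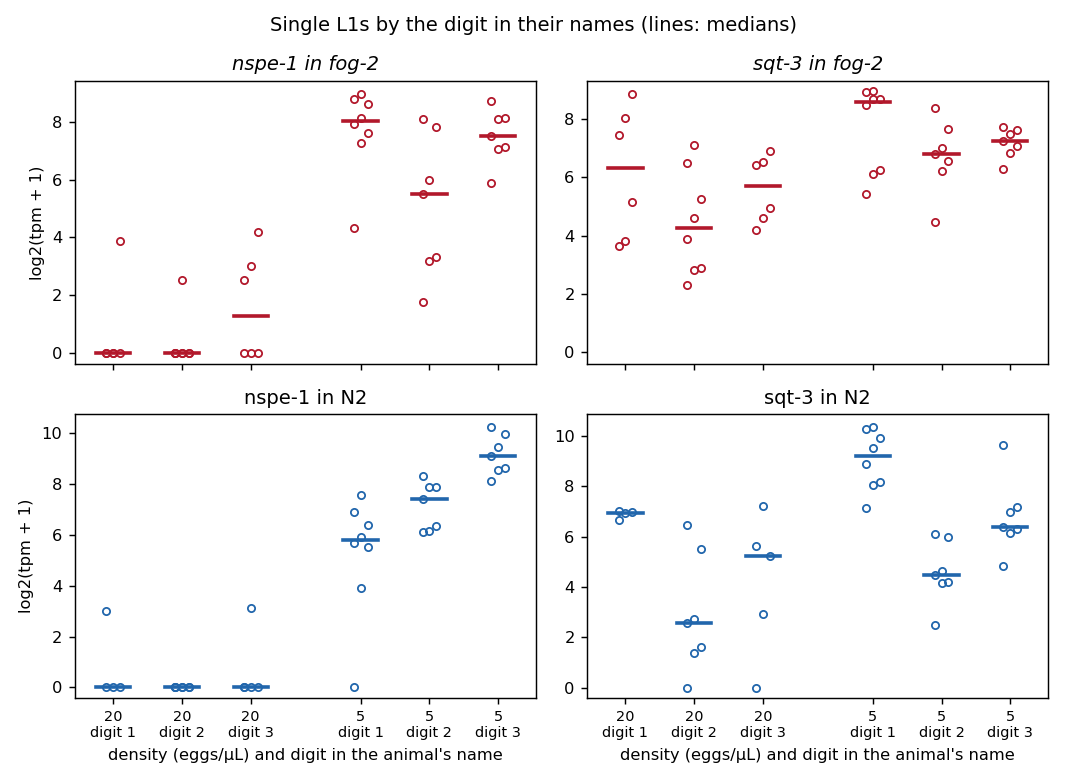
Levels of *nspe-1* (left) and *sqt-3* (right) in single L1s (points, log2(tpm + 1) on the y axis) by density and by the digit in the animals' names (x axis), in *fog-2* (top) and N2 (bottom), with medians as lines. For *nspe-1* the medians of the densities lie apart within each digit, while for *sqt-3* in N2 digit 1 at 20 eggs/μL (median 123 tpm) lies above digit 2 at 5 eggs/μL (median 21.4 tpm).

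By position, 37 of the 97 genes that fell lie on chromosome V (1.15% of the genes tested there) and 20 on chromosome II (0.831%), with 12 on X (0.557%), 13 on IV (0.549%), 8 on III (0.361%) and 7 on I (0.306%). These shares were not tested against each other, and genes in clusters of copies are counted singly. Another gene that fell lay within 10 kb of 30 of them (30.9%), against 336 of 14559 other genes tested (2.31%). These neighbors were the chromosome II stretch, the pud genes, the hsp-16 genes of one locus, *R12E2.14* with *R12E2.15* and *R12E2.7*, which with *F53F1.4* were named only for their place, and the pairs *C02E7.6* and *C02E7.7*, *numr-1* and *numr-2*, *cnc-3* and *cnc-4*, *F35E8.10* and *F35E8.13*, *F44E5.4* and *F44E5.5*, and *cut-2* and *F53F1.4*. Several of them are copies of each other, and how far shared reads add to this share was not tested.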

How the data were processed

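Single L1s were sequenced by the authors with Smart-Seq2 and Nextera libraries, rRNA reads and PCR duplicates were removed, and abundance was estimated with RSEM. Per the labels' processing notes Bowtie and the ce11 build were used, with no version given. The deposited values are tpm, 1 table per strain with 47639 rows each. Of the columns, 146 were matched to an animal and 8 (all at 1 egg/μL) to strain and density only. Read depth is not held in tpm tables, so no counting interval is given. Symbols came from RefSeq (46165 rows) and Ensembl, positions from WBcel235 (ce11).

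A row was tested if 13 or more of the 80 animals reached 1 tpm. The test was limma 3.58.1 (R 4.3.3) with a strain term and a mean-variance trend, applied to log2(tpm + 1). Steps were compared over all animals. Detected rows were compared by 100000 permutations. Named genes are those of the study's text and plots, the 15 largest changes in each direction, up to 4 members per gene list, and those with the smallest p in the contrasts, with exceptions stated. Members and lists were chosen with earlier results of these data known. Alternatives changed the pseudocount, filter, normalization, covariates, block, animals, isoform rows, variance model and threshold. The fits were tested on simulated data with known changes.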

Additional observations from a re-analysis of the deposited data

How the results depend on the processing

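The number of rows called over this step was 100 with both strains together and between 81 and 113 under the alternatives to the pseudocount, filter, normalization, covariates and variance model, while a stricter threshold of 0.01 gave 68. It was 25 with means by name digit, and 40 to 75 with 1 name digit left out (52 without digit 2). In *fog-2* alone, 33 rows became 2 to 22 without 1 name digit and 54 with detected rows as a covariate. In N2 alone, 8 became 1 to 12 without 1 name digit and 20 among rows with a mean tpm of at least 10. The contrast with the last step fell to 2 rows after quantile normalization and 13 with the covariate, of 24. The cause of these changes was not tested, although fewer animals or fewer rows were tested in some. With name digit as a replicate block, 94 rows were called, 39 in *fog-2* and 12 in N2. Deviations of animals with the same digit at 20 and 5 eggs/μL correlated with r of 0.13, 0.07 and 0.10 in *fog-2* and 0.11, 0.03 and 0.29 in N2 across rows, too weak to treat the digits as pairs, and each digit at 20 eggs/μL correlated best with its own except digit 2 in N2. Of 1787 values of 91 named rows under 20 alternatives, 1592 kept their direction and side of the threshold. Another 186 no longer passed (117 of them under the name digit settings), and 8 passed only under an alternative. *sgk-1* changed sign, with -0.17 without name digit 2. A transcript listed at 0 was not detected at the depth of that library and may still have been present.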
